A study of Mus musculus with 10 samples.

Results

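The 8 cyclin genes described here, Ccnd1, Ccnd2, Ccnd3, Ccne1, Ccne2, Ccna2, Ccnb1 and Ccnb2, were chosen by name as the classical cell cycle cyclins. Each was represented by 1 transcribed unit (TU, a stretch of the genome with continuous nascent transcription on 1 strand) among 40779 TUs, of which 16137 carried a gene symbol. Nascent RNA was measured by TT_chem-seq, in which cells are briefly given 4-thiouridine (here 2 mM for 10 min). RNA is then extracted and fragmented, and only fragments that carry the label, made during that time, are purified and sequenced. All 10 libraries came from E14 mouse embryonic stem cells (ESCs) of genotype SOX2-FKBP, in which the endogenous Sox2 gene carries an FKBP degradation tag, grown in serum-free medium with LIF, the MEK inhibitor PD0325901 and the GSK3 inhibitor CHIR99021. dTAG-13 at 500 nM, which recruits the tagged protein for proteasomal destruction, was given for 0.5, 1, 2 or 6 h (hours post depletion, hpd), and the control cells (NT) received DMSO. Homozygous clones that respond to dTAG-13 had been picked to found the line, and the number of clones behind these libraries is not given in the sources used here. Every group held 2 libraries, NT libraries carried the tag as well, and untagged cells given dTAG-13 were not analysed here, so effects of the compound itself cannot be told apart from loss of SOX2.

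Cyclins are the regulatory subunits of cyclin-dependent kinases (CDKs), which drive cells through division. D cyclins bind CDK4 and CDK6 and link growth signals to G1, E cyclins bind CDK2 at entry into S phase, cyclin A2 acts with CDK2 and CDK1 in S phase and G2, and B cyclins with CDK1 drive mitosis. ESCs are known for a short G1 phase. TT_chem-seq follows the making of cyclin RNA and not the amount of RNA or protein, both of which cyclins are well known to control by rapid turnover. In bulk libraries such as these, fewer cells of a type and less RNA per cell cannot be told apart.

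Promoters of 4 of the 8 genes (5 start sites, 2 of them of Ccnd3) were matched in RefSeq sequence on GRCm38.p6. The 2 B cyclin promoters are shown because these genes gave the most similar profiles of any pair among the 8. Each runs 5′ to 3′ on the gene's strand, here the minus strand, from 250 bases before to 50 bases after the start. The capitals mark matches to CCAAT, the box bound by NF-Y in many mitotic promoters, and to TTTGAA, the core of the cell cycle genes homology region.
Ccnb1, chr13:100786437-100786736: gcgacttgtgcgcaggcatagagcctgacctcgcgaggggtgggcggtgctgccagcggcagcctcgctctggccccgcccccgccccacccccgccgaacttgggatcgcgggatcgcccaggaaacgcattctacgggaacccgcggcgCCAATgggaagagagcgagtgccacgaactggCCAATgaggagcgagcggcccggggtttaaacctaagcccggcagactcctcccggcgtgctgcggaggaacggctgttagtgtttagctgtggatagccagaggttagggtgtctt
Ccnb2, chr9:70421505-70421804: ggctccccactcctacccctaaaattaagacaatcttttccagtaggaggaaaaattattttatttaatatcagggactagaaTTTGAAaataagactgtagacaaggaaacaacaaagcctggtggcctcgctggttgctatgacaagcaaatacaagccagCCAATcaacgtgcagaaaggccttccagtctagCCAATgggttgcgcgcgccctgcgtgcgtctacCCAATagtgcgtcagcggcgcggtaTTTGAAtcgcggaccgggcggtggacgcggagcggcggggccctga
Counted from the start site to the first base of the match, the Ccnb2 promoter held CCAAT at -87, -54 and -21, spaced 33 bases apart. The Ccnb1 promoter held CCAAT at -99 and -67, 32 bases apart, and no TTTGAA. Of the other 3 windows, the downstream start of Ccnd3 had CCAAT at -108. Searched on both strands, CCAAT occurred in 37.4% and TTTGAA in 17.9% of 32851 promoter windows of the same length. A TTGGCGC match, an E2F site core, overlapped the first CCAAT of Ccnb1 on the reverse strand and occurred in 2.45% of windows. Such matches describe the sequence and do not show that a factor binds.

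Libraries held 11131490 to 25854106 fragments, and tests covered the 28459 TUs that exceeded 10 fragments in 2 or more of the libraries, all 8 cyclins included. Values are CPM, fragment counts relative to the library total scaled with TMM factors. Being relative, they would not show a change shared by all TUs. Tests are edgeR quasi-likelihood tests with Benjamini-Hochberg adjustment over all 28459 TUs, called at an adjusted p under 0.05. The labels do not say whether replicates were separate cultures, so p-values measure only the spread between these libraries, which may be technical, and all 4 comparisons against NT share the same 2 NT libraries. The tag removes SOX2 protein, so Sox2 RNA does not check the labels. Sox2 was transcribed at 263 ± 28.0 CPM in NT (SD, n = 2) and differed from NT by a log2 fold change of 0.06 at 6 hpd (adjusted p = 0.736). Of the markers checked, all 10 of pluripotent stem cells were in the table. Their summed level was 4091 to 4484 CPM in NT and 3417 to 3681 CPM at 6 hpd. At 6 hpd 7 of these 10 were called lower, beside 9.2% of all tested TUs, and the median of the 10 log2 fold changes was -0.55. Summed levels at NT and 6 hpd were 19.1 to 19.9 and 17.99 to 20.8 CPM for trophoblast (5 of 8 markers in the table), 17.6 to 17.9 and 51.7 to 62.4 CPM for primitive endoderm (6 of 8), 43.5 to 46.4 and 27.9 to 28.8 CPM for neural (5 of 8), 9.69 to 12.2 and 6.81 to 8.21 CPM for mesoderm (2 of 6), and 9.74 to 12.5 and 27.3 to 42.6 CPM for fibroblast genes (3 of 7). Markers with no TU in the table were Elf5, Hand1 and Krt7 (trophoblast), Foxa2 and Cubn (primitive endoderm) and Sox1, Neurod1 and Neurog2 (neural). The same held for T, Mesp1, Hand2 and Tbx6 (mesoderm) and for Col1a2, Col3a1, Postn and Lum (fibroblast). The trophoblast sum was higher in between, at 21.5 to 25.1 CPM from 0.5 to 2 hpd, where Eomes was called higher by 1.52, 1.64 and 1.79 on the log2 scale. Also called higher were Dab2 (0.91, 1.30 and 1.92) and Pdgfrb (1.13, 1.37 and 1.71) at 1, 2 and 6 hpd and Gata6 (1.14) at 2 hpd, while Nes (1, 2 and 6 hpd), Tubb3 (2 and 6 hpd), Tfap2a (1 hpd) and Kdr (6 hpd) were called lower. These levels moved with time as some cyclin values below did, and their part in those values was not tested.

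Ccnd1 was the 1 cyclin gene called as changed in the fit over all 10 libraries that left replicate number out. With replicate number added to that fit as a block, Ccne1 and Ccnb2 were called as well (values below). Ccnd1 encodes cyclin D1, and its TU lay at chr7:144927876-144943453 on the minus strand (mm10). The TU started 3.62 kb upstream of the RefSeq gene start. The 2 NT libraries gave 38.1 and 40.4 CPM. At 0.5 hpd Ccnd1 was at 31.3 and 35.5 CPM, at 1 hpd at 25.5 and 25.2 CPM, at 2 hpd at 16.8 and 17.2 CPM, and at 6 hpd at 12.6 and 6.99 CPM. Every library after dTAG-13 lay below both NT libraries, and each time point lay wholly below the one before it. Group means went from 39.3 ± 1.63 CPM in NT to 33.4 ± 2.94, 25.3 ± 0.169, 17.01 ± 0.322 and 9.82 ± 4.00 CPM (SD, n = 2 each).

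**Figure D1:**
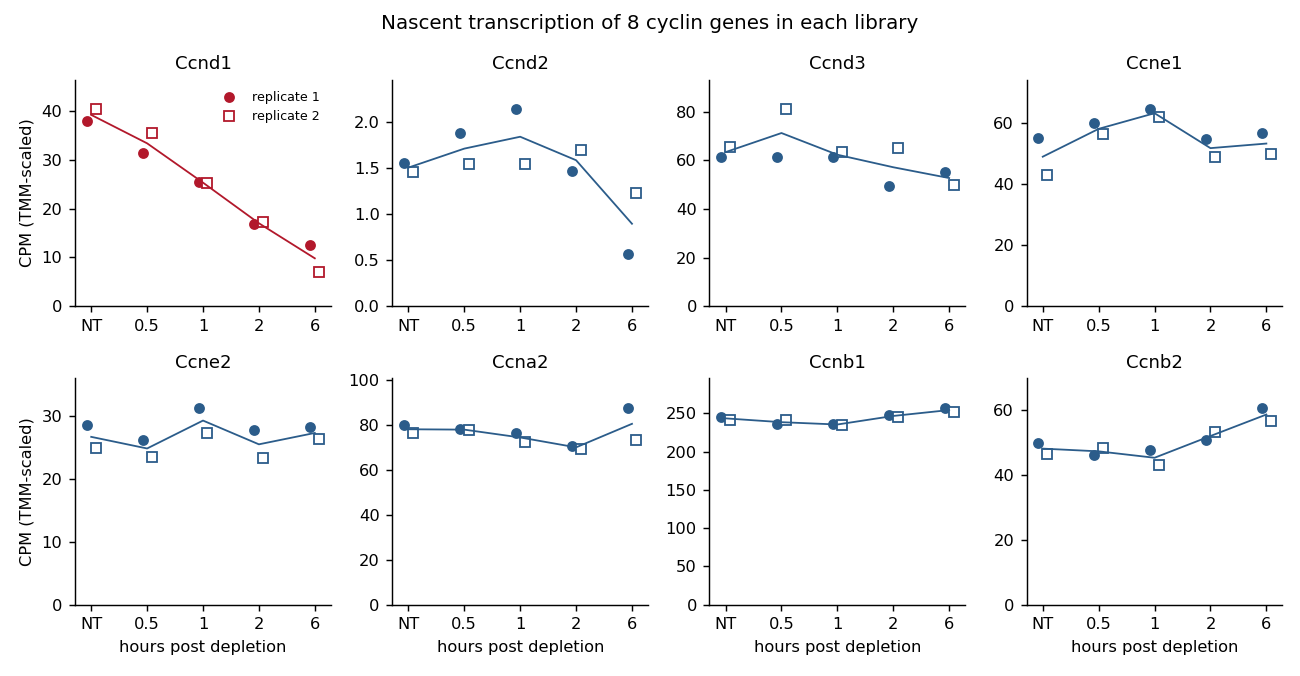
TMM-scaled CPM (linear axes from 0) of the 8 cyclin genes in each of 10 libraries, by hours post depletion, which are spaced evenly on the axis. Filled circles are replicate 1, open squares replicate 2, and lines join group means. Ccnd1 (red) runs from 38.1 and 40.4 CPM in NT to 12.6 and 6.99 CPM at 6 hpd, whereas Ccnb1 stays between 235 and 257 CPM.

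Against NT, the log2 fold change of Ccnd1 was -0.24 ± 0.17 (SE) at 0.5 hpd, which was not called (edgeR adjusted p = 0.77, 95% interval -0.60 to 0.12). At 1 hpd it was -0.63 ± 0.17 and called (edgeR adjusted p = 0.0427), and at 2 hpd -1.21 ± 0.18 (adjusted p = 0.00038). By 6 hpd it had reached -2.02 ± 0.19 (edgeR adjusted p = 4.17e-06), a 4.04-fold reduction with a 95% interval of -2.42 to -1.61. Of the 8 cyclins, 0 were called at 0.5 hpd and 1, Ccnd1, at each later time, beside 1.31%, 5.75%, 9.83% and 15.8% of all tested TUs. In the joint edgeR test of any difference over time Ccnd1 was again the 1 member called (adjusted p = 1.94e-05), beside 12.3% of TUs. Between time points, Ccnd1 was lower at 6 than at 1 hpd by 1.38 on the log2 scale (edgeR adjusted p = 5e-04), a comparison in which 4.88% of TUs were called. The steps between successive times were not called, with log2 fold changes of -0.39 from 0.5 to 1 hpd (adjusted p = 0.882, 0.109% of TUs called), -0.58 from 1 to 2 hpd (adjusted p = 0.419, 0.218% called) and -0.81 from 2 to 6 hpd (adjusted p = 0.0717, 0.777% called).

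The 1 hpd call rested on each of 4 libraries. Without NT replicate 1 it was -0.66 (edgeR adjusted p = 0.126), without NT replicate 2 -0.57 (adjusted p = 0.263), without 1 hpd replicate 1 -0.64 (adjusted p = 0.219) and without 1 hpd replicate 2 -0.62 (adjusted p = 0.217). The 2 libraries at 6 hpd were further apart than counting error, by 0.85 on the log2 scale. Leaving out 6 hpd replicate 1 gave -2.47 against NT and -1.27 against 2 hpd (edgeR adjusted p = 0.00639, called), and leaving out replicate 2 gave -1.63 and -0.43 (adjusted p = 0.387).

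**Figure D2:**
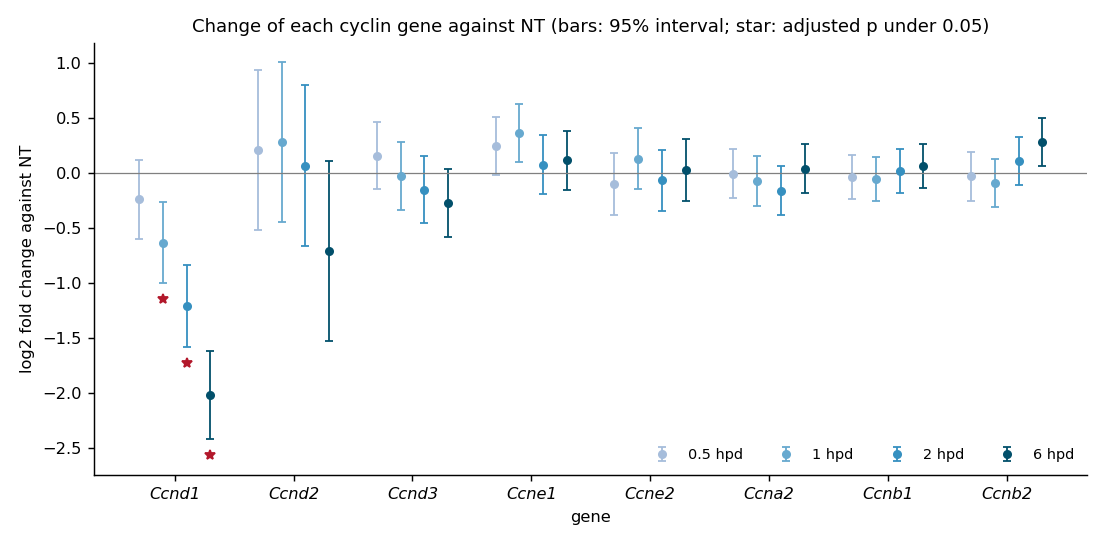
Log2 fold change against NT of each cyclin gene at 0.5, 1, 2 and 6 hpd (light to dark, left to right), with 95% intervals from the edgeR fit over 10 libraries. Stars mark an adjusted p under 0.05. The stars sit under Ccnd1 at 1, 2 and 6 hpd, and the interval of Ccnd2 is the widest of the 8 at each time.

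The other 2 D cyclins were not called at any time. Ccnd3, which like Ccnd1 binds CDK4 and CDK6, gave 61.3 and 65.5 CPM in NT, 61.5 and 81.1 CPM at 0.5 hpd, 61.4 and 63.3 CPM at 1 hpd, 49.3 and 65.1 CPM at 2 hpd, and 55.4 and 50.1 CPM at 6 hpd. Only at 6 hpd did its 2 libraries lie below both NT libraries, with a log2 fold change of -0.27 (95% interval -0.58 to 0.04, edgeR adjusted p = 0.23). Ccnd2 was close to the limit of detection, with 8 to 48 fragments per library, and gave 1.55 and 1.45 CPM in NT and 0.562 and 1.22 CPM at 6 hpd. Its 6 hpd value was -0.71 with a 95% interval of -1.53 to 0.11 (edgeR adjusted p = 0.229), so that neither no change nor a halving was excluded at this depth. The 2 libraries at 6 hpd held 8 and 21 fragments of Ccnd2. Without 6 hpd replicate 1 its value was -0.28 (edgeR adjusted p = 0.719) and without 6 hpd replicate 2 it was -1.40 (adjusted p = 0.101). Counting error alone was 35.4% of the value in the Ccnd2 library with fewest fragments, against 9.13% for Ccnd1 and 1.88 to 6.04% for the other 6.

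Shares of the D cyclins depend on division by TU length, which was 102.8 kb for Ccnd3 and 15.6 kb for Ccnd1. In CPM without that division Ccnd3 was above Ccnd1 in NT, at 63.4 against 39.3 CPM. Per kilobase of TU, the share of D cyclin transcription that came from Ccnd1 was 78.7% in both NT libraries. It was 72.7 to 74.8% at 0.5 hpd, 70.3% at 1 hpd, 61.0 to 66.5% at 2 hpd and 45.4 to 59.0% at 6 hpd. The Ccnd3 share went from 19.2 to 19.3% in NT to 39.2 to 49.3% at 6 hpd, where its own level was 52.8 ± 3.78 CPM against 63.4 ± 2.99 CPM in NT (SD, n = 2), and the Ccnd2 share was 1.92 to 2.16% in NT and 1.78 to 5.37% at 6 hpd.

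Neither E cyclin was called at any time in the fit over 10 libraries that left replicate number out. Ccne1 gave 55.0 and 42.8 CPM in NT, 59.8 and 56.2 CPM at 0.5 hpd, 64.4 and 61.8 CPM at 1 hpd, 54.7 and 48.7 CPM at 2 hpd, and 56.5 and 49.8 CPM at 6 hpd. At 0.5 and 1 hpd both libraries lay above both NT libraries, which themselves differed by 0.36 on the log2 scale. The log2 fold change at 1 hpd was 0.37 (95% interval 0.10 to 0.63, edgeR adjusted p = 0.114), not called. Without NT replicate 1 it was 0.58 and called (edgeR adjusted p = 0.0306), and without NT replicate 2 it was 0.22 (adjusted p = 0.523). Fitted on the NT and 1 hpd libraries alone it was 0.39 and called (edgeR adjusted p = 0.0284). With replicate number added as a block to the fit over 10 libraries it was 0.37 and called (edgeR adjusted p = 0.0106). That fit called 11.2% of all TUs at 1 hpd. Ccne2, which also activates CDK2, ranged from 23.3 to 31.3 CPM over the 10 libraries, its groups overlapped NT at every time, and its log2 fold changes were between -0.10 and 0.13.

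Ccna2, needed for DNA replication and entry into mitosis, gave 79.8 and 76.2 CPM in NT, 70.8 and 69.2 CPM at 2 hpd and 87.5 and 73.4 CPM at 6 hpd. The 2 hpd libraries lay below NT, by a log2 fold change of -0.16 (95% interval -0.38 to 0.07, edgeR adjusted p = 0.389), and the 6 hpd libraries lay on both sides of it.

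Ccnb1, the main mitotic cyclin partner of CDK1, was the most precisely measured of the 8, with 2818 to 6034 fragments per library. It gave 245 and 241 CPM in NT, 235 and 241 CPM at 0.5 hpd, 235 CPM in both libraries at 1 hpd, 247 and 245 CPM at 2 hpd, and 257 and 251 CPM at 6 hpd. Although the 6 hpd libraries lay above NT, the difference was 0.06 on the log2 scale (95% interval -0.14 to 0.26, edgeR adjusted p = 0.69). Ccnb2 gave 49.9 and 46.3 CPM in NT, 46.2 and 48.3 CPM at 0.5 hpd, 47.6 and 42.9 CPM at 1 hpd, 50.9 and 53.1 CPM at 2 hpd, and 60.6 and 56.5 CPM at 6 hpd. Its 6 hpd libraries were the 2 highest of 10, with a log2 fold change of 0.28 against NT (95% interval 0.06 to 0.50, edgeR adjusted p = 0.0762) and 0.37 against 1 hpd (adjusted p = 0.0523), neither of which was called. Without 2 hpd replicate 2, which is in neither group but shares the estimate of spread, the former became called at 0.30 (edgeR adjusted p = 0.0499) and the latter at 0.37 (adjusted p = 0.0418), as did the latter at 0.37 without 2 hpd replicate 1 (adjusted p = 0.0418). With replicate number added to the fit as a block, Ccnb2 was called at 0.28 against NT (edgeR adjusted p = 0.026). Against 1 hpd it was called at 0.37 (edgeR adjusted p = 0.0105). Over the 10 libraries the log2 CPM of Ccnb1 and Ccnb2 had a Pearson r of 0.934. Other genes came closer to each, such as Gm36591 to Ccnb1 (0.964) and Txnrd1 to Ccnb2 (0.969). A part of the promoter boxes printed above in this likeness was not tested. The points share the same libraries and time course, and these r values are a description.

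For 6 cyclins other than Ccnd1 and Ccnd2, the 95% intervals at all 4 times lay within a 2-fold change either way, and all but that of Ccne1 at 1 hpd lay within 1.5-fold. At 6 hpd the libraries of 5 of the 8 cyclins did not overlap NT, Ccnd1, Ccnd2 and Ccnd3 below it and Ccnb1 and Ccnb2 above it, where 58.5% of all tested TUs did not overlap either.

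Levels of different genes were compared per kilobase of TU, which covers introns as well as exons. The Ccnd3 TU was 102.8 kb long against 15.6 kb for Ccnd1. In CPM without division by length, Ccnd3 was the higher of these genes in NT and at 6 hpd. In NT the order was Ccnb1 at 17.6 CPM per kb, Ccna2 at 6.19, Ccne1 at 2.97, Ccnd1 at 2.52, Ccnb2 at 2.29, Ccne2 at 1.38, Ccnd3 at 0.617 and Ccnd2 at 0.0652 CPM per kb. Ccne1 and Ccnd1 were 0.454 CPM per kb apart, less than the SD of Ccne1 (0.524), and do not differ beyond their spread. The other neighbours were further apart than the larger of their SDs. By 6 hpd Ccnd1 had gone from the fourth to the sixth place at 0.630 CPM per kb, and its 2 libraries (0.449 and 0.812) enclosed those of Ccnd3 (0.487 and 0.539), so these 2 genes could no longer be ordered. The order of the remaining 7 genes was the same as in NT.

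**Figure D3:**
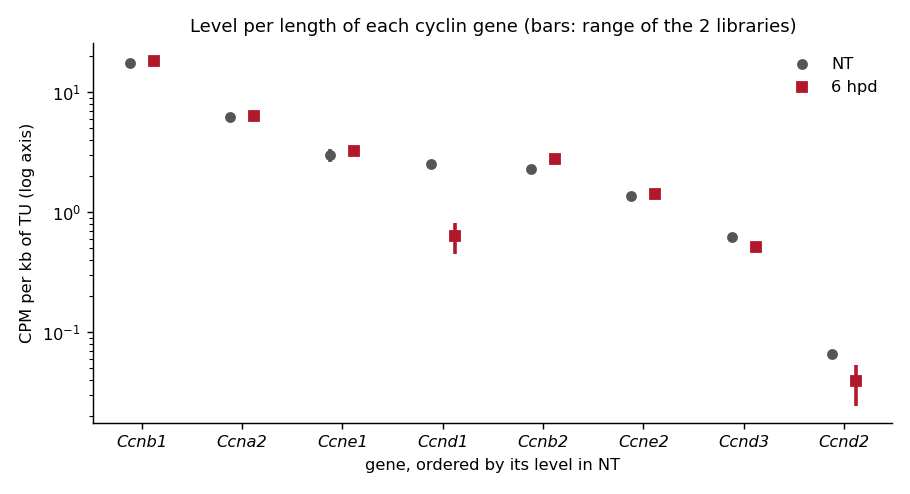
CPM per kb of TU on a log axis for each cyclin gene in NT (grey circles) and at 6 hpd (red squares), as means with the range of 2 libraries, ordered by level in NT. Ccnd1 drops from 2.52 to 0.630 CPM per kb, to the level of Ccnd3, and the values of Ccnb1, Ccna2, Ccne1 and Ccne2 lie close together.

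The 3 genes whose log2 CPM over the 10 libraries were most like those of Ccnd1, among 10541 TUs with a symbol and a mean of at least 100 fragments, were Ucp2 (Pearson r = 0.985), Zfp36l1 (0.983) and C1qbp (0.983). Their changes were smaller, with log2 fold changes at 6 hpd of -0.97, -0.70 and -0.54 (edgeR adjusted p = 3.78e-05, 0.00036 and 0.00174). They were picked for likeness to a gene that fell, so these p-values are no separate evidence of a fall. The correlations describe libraries that share 1 time course.

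Nascent transcription on the strand opposite to the cyclin genes was examined because it is counted separately from them. The TU of Ccnd1 was overlapped along its whole length by that of Oraov1 on the plus strand, which gave 37.8 ± 1.61 CPM in NT and 33.3 ± 2.61 CPM at 6 hpd (SD, n = 2) and was not called (log2 fold change -0.18, edgeR adjusted p = 0.3). The TU of Ccna2 was likewise overlapped in full, by that of Exosc9, which encodes a subunit of the RNA exosome and gave 44.8 ± 1.28 CPM in NT and 41.2 ± 0.538 CPM at 6 hpd (SD, n = 2). Exosc9 was not called (log2 fold change -0.12 at 6 hpd, edgeR adjusted p = 0.451). The clearest change of this kind was within Ccnd3. A TU of 12838 bp without a gene symbol, annotated as extragenic, lay at chr17:47561826-47574664 on the minus strand, between the 2 RefSeq starts of Ccnd3, which is on the plus strand. The 300 bases around its start are shown 5′ to 3′ on the minus strand, with the first 50 transcribed bases in capitals, because, among the cyclins and the units beside them, this was the 1 change called at 0.5 hpd.
Start of the unit antisense to Ccnd3, chr17:47574615-47574914: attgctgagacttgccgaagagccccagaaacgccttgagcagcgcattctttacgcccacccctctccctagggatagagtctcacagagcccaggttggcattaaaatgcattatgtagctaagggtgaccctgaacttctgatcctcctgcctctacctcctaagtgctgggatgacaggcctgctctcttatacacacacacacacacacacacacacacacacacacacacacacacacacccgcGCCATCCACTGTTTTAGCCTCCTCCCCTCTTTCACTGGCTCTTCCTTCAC
Searched on both strands for 2 versions of a SOX core, ACAAAG and ACAATG, which 18.7% and 12.6% of promoter windows held, the window held neither. Of the 5 cyclin promoter windows, 0 held ACAATG and 2 held ACAAAG, that of Ccnb2 printed above at -137 and that of the upstream Ccnd3 start on the reverse strand at -29 and 44. Starts of TUs were set from read coverage and need not mark the exact initiation site.

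This antisense unit gave 19.7 and 20.5 CPM in NT. It was at 11.4 and 8.64 CPM at 0.5 hpd, 9.53 and 7.74 CPM at 1 hpd, 8.14 and 7.66 CPM at 2 hpd, and 9.13 and 6.76 CPM at 6 hpd. All 8 libraries after dTAG-13 lay below NT, and the values from 0.5 to 6 hpd lay close together. Its log2 fold change was already -0.98 ± 0.17 at 0.5 hpd (edgeR adjusted p = 0.0096) and was -1.22 at 1 hpd, -1.35 at 2 hpd and -1.35 at 6 hpd, with edgeR adjusted p = 0.00057, 0.000159 and 0.000115. Ccnd3 itself was not called. The 0.5 hpd call was lost without NT replicate 1 (-1.01, edgeR adjusted p = 0.0637), NT replicate 2 (-0.95, adjusted p = 0.122) or 0.5 hpd replicate 2 (-0.81, adjusted p = 0.102). On the strand opposite Ccnb2, Myo1e, a gene for a class I myosin, overlapped 16746 of the 21033 bp of the Ccnb2 TU from its 3' end and was called higher, by 0.49, 0.62 and 0.55 at 1, 2 and 6 hpd (edgeR adjusted p = 0.0144, 0.00206 and 0.00349), from 243 ± 19.6 CPM in NT to 355 ± 27.3 CPM at 6 hpd. Its 1 hpd call was lost without NT replicate 2 (0.43, edgeR adjusted p = 0.143), 1 hpd replicate 1 (0.47, adjusted p = 0.148) or 1 hpd replicate 2 (0.51, adjusted p = 0.0994).

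**Figure D4:**
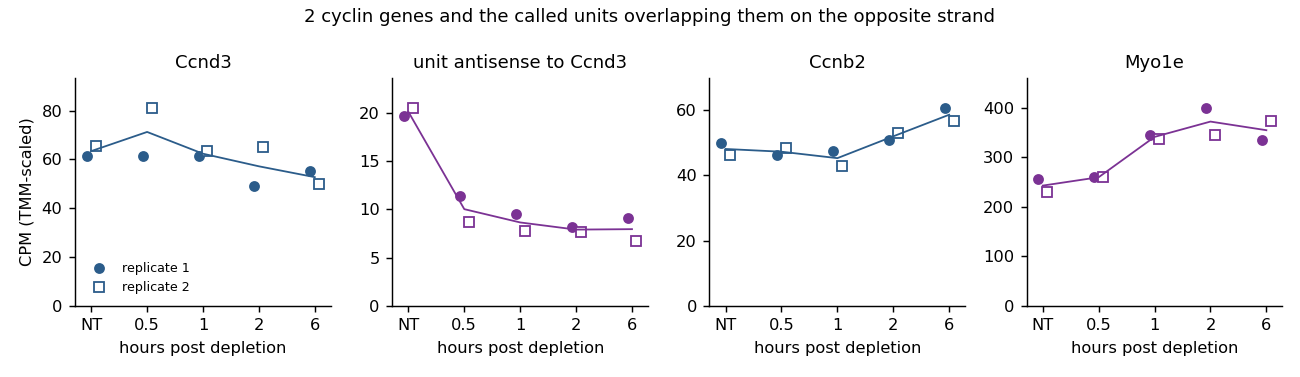
TMM-scaled CPM by library and hours post depletion (evenly spaced) for Ccnd3 and the unit antisense to it, and for Ccnb2 and Myo1e, which overlaps it on the opposite strand, with filled circles for replicate 1, open squares for replicate 2 and lines through group means. The unit antisense to Ccnd3 drops from 19.7 and 20.5 CPM to 11.4 and 8.64 CPM by 0.5 hpd and stays below that NT level, and Myo1e lies above NT from 1 hpd.

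The other genes of the cell cycle machinery were followed in 7 lists of 106 genes, of which 100 had a TU and 98 were tested. Over the 7 lists, 0 rose and 1 fell at 0.5 hpd, 4 rose and 1 fell at 1 hpd, 6 rose and 3 fell at 2 hpd, and 8 rose and 3 fell at 6 hpd. These were 1.02%, 5.1%, 9.18% and 11.2% of the 98 genes, near the 1.31%, 5.75%, 9.83% and 15.8% of all TUs, and the medians over the 98 genes at the 4 times lay between 0.03 and 0.09 on the log2 scale. Scaled by total counts alone, 9 rose and 10 fell at 6 hpd, beside 1456 that rose and 3106 that fell among all TUs. Without NT replicate 2, 1 rose and 1 fell at 6 hpd, where the share of all TUs called was 6.86%. Beside the counts of single lists at 6 hpd, 6.61% of all TUs rose and 9.2% fell.

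Among the kinase subunits that pair with these cyclins, Cdk6, the kinase partner of D cyclins, rose from 349 ± 12.2 CPM in NT to 500 ± 14.4 CPM at 1 hpd and 577 ± 106 CPM at 2 hpd (SD, n = 2), log2 fold changes of 0.52 and 0.73 (edgeR adjusted p = 0.0249 and 0.00184). Its 6 hpd value of 0.39 was not called (adjusted p = 0.0519). Without either NT library or either 1 hpd library the 1 hpd call of Cdk6 was lost, at 0.49 to 0.57. Pkmyt1, a kinase that inhibits CDK1, fell by 0.51 at 2 hpd (adjusted p = 0.0123, lost at -0.51 without NT replicate 2 and at -0.53 without 2 hpd replicate 1). In this list of 12 CDKs and their regulators, 1 rose and 1 fell at 2 hpd and 0 were called at 6 hpd, where leaving out 1 library gave 0 to 1 in each direction.

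Of 6 CDK inhibitors tested, 1 rose at 1 hpd, 1 at 2 hpd and 2 at 6 hpd, and none fell. Leaving out 1 library gave 0 to 1 up at 1 and 2 hpd and 0 to 3 at 6 hpd, with 0 without NT replicate 2, and the alternative scalings, filters and block gave up to 1 down at 1 and 2 hpd. Cdkn2c, the INK4 inhibitor p18 of CDK4 and CDK6, was low, at 1.07 ± 0.387 CPM in NT and 3.15 ± 0.0115 CPM at 6 hpd, a log2 fold change of 1.54 (edgeR adjusted p = 0.00512, 1.24 and not called without NT replicate 2). Cdkn1a, the inhibitor p21, rose by 0.57 and 0.59 at 1 and 2 hpd (adjusted p = 0.0487 and 0.0304), calls that were lost in 8 and 5 of 17 alternatives. Without an NT or a 1 hpd library, or without a 6 hpd library, the former was 0.38 to 0.74, and without an NT library or 2 hpd replicate 2 the latter was 0.33 to 0.63.

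Of 13 pocket protein, E2F and DP genes, E2f2, an activator of S phase genes, was the 1 called, 0.45 higher at 1 hpd (edgeR adjusted p = 0.0203) and at 0.05 by 6 hpd. Its call was lost without NT replicate 2 (0.38) or either 1 hpd library (0.45 for both), and with total counts only (0.36, edgeR adjusted p = 0.0569). Among 11 genes of cyclin turnover, Fbxw7, the ubiquitin ligase subunit that recognises cyclin E, was 0.59 higher at 2 hpd (adjusted p = 0.0141, lost at 0.50 without NT replicate 2 and at 0.37 without 2 hpd replicate 1). Gsk3b, a kinase that phosphorylates cyclin D1 and the target of CHIR99021, was 0.41 and 0.37 higher at 2 and 6 hpd (adjusted p = 0.0376 and 0.0406), both lost in 7 of 17 alternatives, among them without either NT or either 1 hpd library, with the lowest value, 0.26, at 2 hpd without 2 hpd replicate 1. That list counted 2 up at 2 hpd and 1 up at 6 hpd, and 0 to 5 and 0 to 4 when 1 library was left out.

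Of 19 DNA replication genes, Orc1, a subunit of the origin recognition complex, was 0.48 higher at 1 hpd (edgeR adjusted p = 0.0107), and lost this call without NT replicate 2 (0.48) or either 1 hpd library (0.51 and 0.45). Uhrf1, which guides maintenance of DNA methylation, fell by 0.39 at 2 and 6 hpd (adjusted p = 0.0198 and 0.0133), and both calls were lost without either NT library (-0.40 to -0.37), the former also without 2 hpd replicate 1 (-0.34) and with only the libraries compared (-0.37), and the latter without 6 hpd replicate 1 (-0.33). The list counted 2 that fell at 6 hpd, 0 to 2 when 1 library was left out (0 without either NT library or 6 hpd replicate 1), with a median of -0.05 on the log2 scale. Of 23 mitotic genes, 3 rose and 1 fell at 6 hpd, with a median of 0.16 beside 0.07 for all tested TUs with a symbol. The 3 became 1 to 4 when 1 library was left out (1 without NT replicate 2 or either 6 hpd library) and 2 to 7 under the other alternatives. Mybl2, a transcription factor of the complex that activates mitotic genes, fell at all 4 times, from 538 ± 16.5 CPM in NT to 377 ± 0.381, 323 ± 18.04, 330 ± 7.50 and 300 ± 40.0 CPM (SD, n = 2), with log2 fold changes of -0.51, -0.74, -0.71 and -0.84 (edgeR adjusted p = 0.0314, 0.000751, 0.000686 and 9.93e-05). Its 0.5 hpd call was lost without any 1 of the NT, 0.5 hpd or 1 hpd libraries, at -0.54 to -0.48. Cenpf, a kinetochore protein, was 0.50 and 0.52 higher at 2 and 6 hpd (adjusted p = 0.00636 and 0.00352, the former lost at 0.46 without NT replicate 2). Of 14 other cyclins tested, none was called before 6 hpd in this fit. Alternatives other than leaving out a library gave 0 to 1 up at 1 hpd and 0 to 3 up at 2 hpd. At 6 hpd 2 rose, among them Ccnjl at 0.61 (edgeR adjusted p = 0.00739, lost at 0.51 without NT replicate 2). Leaving out 1 library gave 0 to 3 up, with 0 without NT replicate 2 and 1 without 6 hpd replicate 2.

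**Figure D5:**
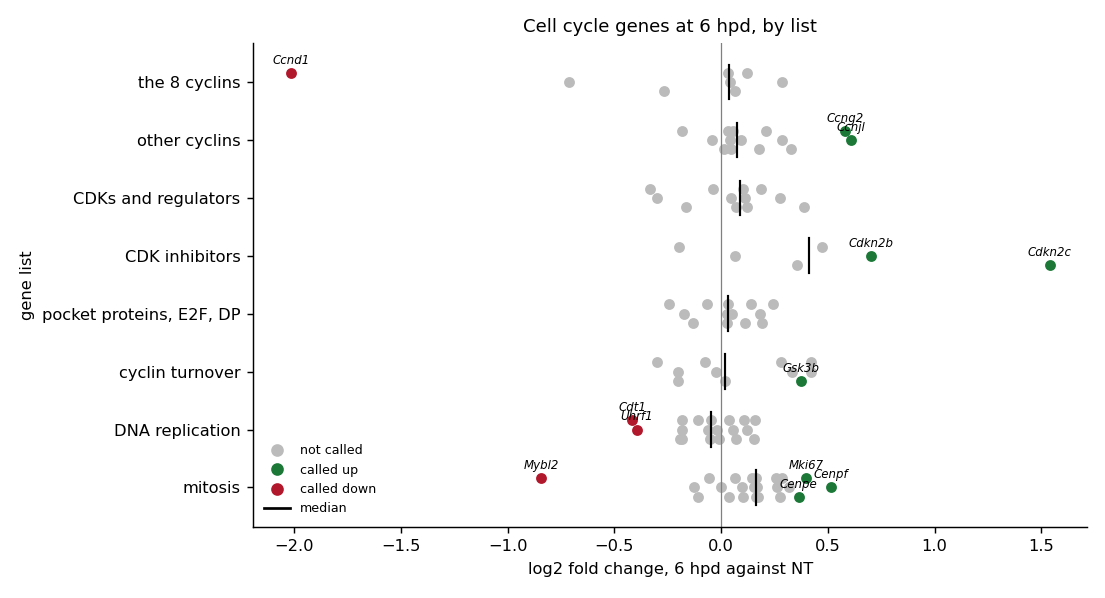
Log2 fold change at 6 hpd against NT of the 8 cyclins and of the tested genes in each of 7 cell cycle lists, with 1 point per gene, offset vertically for legibility. Grey points were not called, green and red points were called up and down, and the black bar is the median of the list. Ccnd1 at -2.02 is the lowest point and Cdkn2c at 1.54 the highest.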

How the data were processed

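Nascent RNA was measured in 10 TT_chem-seq libraries, which the labels place in 5 groups of 2 replicates. Fragment counts for each TU, raw and not normalized, were deposited by the authors. Per the study's methods and the submitters' processing notes, reads were aligned by the authors to the mm10 genome with BWA 0.7.17-r1188, then they filtered them with SAMtools 1.10, removed duplicates with Picard 2.12.0, split alignments by strand, called TUs on pooled data with a hidden Markov model and counted fragments in each. Because TUs were called on pooled data and counts include introns, a TU holding several starts, as for Ccnd3, gives 1 value. The positions of TUs were deposited by the authors with the counts.

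edgeR 4.0.16 under R 4.3.3 was fitted to the counts of all 10 libraries, scaled by TMM, with a coefficient for each of the 5 groups and no covariates, and contrasts were tested with glmQLFTest. The common biological coefficient of variation came to 10%. Standard errors were derived from the F statistic and the fold change. Log2 CPM used a prior count of 2. The study's methods used DESeq2, run here as an alternative (1.42.0), with other scalings, count filters, a replicate block and each library left out in turn. The scripts were tested on simulated data. Promoter windows came from RefSeq on GRCm38.p6.

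The cyclins, lists and tests were chosen with earlier results of these data known. From each list, the gene with the smallest p in each direction among those called, and every gene called at 2 or more times, was named, with the 3 genes most like any called cyclin. TUs overlapping a cyclin on the opposite strand were named where called or where they covered it fully.

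Replicate numbers come from the titles. Samples of the same number had correlated deviations in 8 of 10 pairs of groups (r over 0.1, range 0.074 to 0.291 over 28459 TUs), short of all 10, so they were not taken to be paired.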

Additional observations from a re-analysis of the deposited data

How the results depend on the processing

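The falls of Ccnd1 at 2 and 6 hpd kept their direction and call in all 17 alternatives, at -1.32 to -1.16 and -2.47 to -1.63 on the log2 scale. Its 1 hpd call was lost with RLE factors (-0.60, edgeR adjusted p = 0.0535) and under the filter of at least 50 counts on average (-0.65, adjusted p = 0.0565), which left 0 cyclins called down. Leaving out 1 library in turn gave 0 to 1 cyclins down at 1 hpd, 0 to 1 up at 1 and 6 hpd, 0 to 1 down from 2 to 6 hpd and 0 to 1 up from 1 to 6 hpd. With only the libraries compared, 1 cyclin was up at 1 hpd (Ccne1) and 1 up from 1 to 6 hpd (Ccnb2), the latter also with a mean of at least 50 counts. DESeq2 called 1 down from 2 to 6 hpd (Ccnd1). Replicate 1 was above replicate 2 in all 5 groups for Ccne1, Ccne2 and Ccna2. The replicate block called 1 up at 1 hpd (Ccne1, 0.37, edgeR adjusted p = 0.0106), 1 up at 6 hpd (Ccnb2, 0.28, adjusted p = 0.026), 1 down from 2 to 6 hpd (Ccnd1, -0.82), 1 up from 1 to 6 hpd (Ccnb2) and 3 over all times.

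Uncalled values near 0 changed sign. With total counts only, which moved the median of all TUs at 2 hpd from -0.04 to -0.16, Ccnd2, Ccne1, Ccnb1 and Ccnb2 at 2 hpd were -0.0452, -0.0371, -0.0955 and -0.0014, and Ccne2, Ccna2 and Ccnb1 at 6 hpd were -0.0576, -0.0455 and -0.0271. A mean of at least 50 counts gave -0.0187 (Ccne2, 6 hpd), 0.0013 and -0.0086 (Ccna2, 0.5 and 6 hpd) and -0.0120 (Ccnb1, 2 hpd). RLE factors gave 0.0023 for Ccnd3 at 1 hpd and Ccna2 at 0.5 hpd, DESeq2 0.0022 and 0.0024, and only the libraries compared 0.0178 for the latter.

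Leaving out 1 library in turn also changed signs of log2 fold changes. At 0.5 hpd the range was -0.0323 to 0.3570 for Ccnd3, -0.1868 to 0.0069 for Ccne2, -0.0307 to 0.0300 for Ccna2, -0.0751 to 0.0267 for Ccnb2. At 1 hpd the range was -0.0570 to 0.0438 for Ccnd3. At 2 hpd the range was -0.0484 to 0.1736 for Ccnd2, -0.3775 to 0.0379 for Ccnd3, -0.0888 to 0.2688 for Ccne1, -0.1996 to 0.0414 for Ccne2. At 6 hpd the range was -0.0308 to 0.3273 for Ccne1, -0.0463 to 0.1498 for Ccne2, -0.0754 to 0.1671 for Ccna2.

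For the 7 lists, total counts only gave 1 up at 0.5 hpd, 4 down at 1 hpd and 10 down at 6 hpd. DESeq2 gave 1 up at 0.5 hpd. A mean of at least 50 counts gave 1 up at 0.5 hpd, 2 down at 1 hpd, and 5 up and 7 down at 6 hpd. Only the libraries compared gave 1 up at 0.5 hpd, 15 up and 2 down at 1 hpd and 17 up at 6 hpd, beside 12.3% and 21.6% of all TUs at 1 and 6 hpd. The replicate block gave 3 up and 2 down, 7 up and 3 down, 20 up and 8 down, and 20 up and 5 down at the 4 times, where it called 3.94%, 11.2%, 19.1% and 26.1% of all TUs. Leaving out 1 library gave 0 to 2 up and 0 to 1 down at 0.5 hpd, 0 to 6 up and 1 down at 1 hpd, 1 to 17 up and 1 to 8 down at 2 hpd, and 1 to 15 up and 1 to 4 down at 6 hpd. Of the 20 calls of named list genes, 5 were kept in all alternatives, and 15 were lost without NT replicate 2, where 0.292%, 2.3%, 4.13% and 6.86% of all TUs were called at the 4 times. Among TUs beside the cyclins, the replicate block gave 2 up at 2 hpd and 2 up and 2 down at 6 hpd, only the libraries compared 2 up at 6 hpd, and total counts only and a mean of at least 50 counts 3 down at 6 hpd each. Leaving out 1 library gave 0 to 1 down at 0.5 hpd, 0 to 1 up at 1 hpd, 1 to 2 up and 1 to 2 down at 2 hpd and 1 to 2 up at 6 hpd. For calls that changed, the cause was not tested. Depth limits Ccnd2 most, with 8 to 48 fragments a library.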
